A study of Homo sapiens with 12 samples.

Results

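Circular RNAs (circRNAs) of 5 genes for proteins of the microtubule cytoskeleton and the centrosome were followed in human colorectal cancer cells before and after selection for resistance to 5-fluorouracil (5-Fu). All circRNAs that the deposited table assigns to CAMSAP1, CLASP1, NAV3, SPECC1 or CEP192 were taken, which gave 69 of 17938. The 12 libraries came from 2 cell lines, HCT116 and Lovo, each as the sensitive parental line and as its 5-Fu resistant derivative, with 3 libraries in each of the 4 groups. The labels name no genetic change in any group. Per the labels, the derivatives had been grown in 5-Fu at concentrations that began at 0.1 and ended at 2 μg/ml, where they had to live for 3 days or more. The labels do not say whether the 3 libraries of a group were separate cultures, so that a p-value here sets a difference against a spread that may be technical only. They do not say either whether a derivative was selected more than once, so that resistance and any other divergence of a derivative from its parent cannot be told apart.

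A circRNA forms when the end of an exon is spliced back to the start of the same or an earlier exon, and the reads that cross this back-splice junction count it. Microtubules are hollow tubulin polymers with a dynamic plus end and a slower minus end, and in dividing cells most of them grow from the centrosome to build the spindle. CAMSAP1 is a calmodulin-regulated spectrin-associated protein that binds free minus ends, CLASP1 stabilises plus ends and binds kinetochores, and NAV3 (neuron navigator 3) follows growing plus ends. CEP192 is a scaffold of the pericentriolar material that recruits the kinases of centrosome maturation and centriole duplication. SPECC1, also called cytospin B, is a coiled-coil protein with a calponin homology domain and is the least directly tied to microtubules of the 5. The genes were proposed with results of these data known and it is not recorded which values led to them, so differences between the cell lines are given as a description with no test. No genome of the build of the table (hg19) was used here, and no junction sequence is shown.

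The table lists whole numbers of junction reads, not normalized. Libraries held 5654 to 10535 junction reads, of which 1.15% to 1.62% (69 to 164 reads) belonged to the 5 genes. The precision of each value is set by these small numbers, and intervals given below are 95% counting intervals that do not cover the spread between libraries. Levels are junction reads scaled to a common library size (CPM) after TMM scaling, as mean ± SD with n = 3 a group. In these bulk libraries, fewer cells with a circRNA and less of it per cell cannot be told apart, and linear RNA of the hosts was not analysed here. The first principal component of the tested circRNAs (40.5% of variance) separated the lines. On the second (9.76%), resistant HCT116 replicate 1 lay at -10.2, and the other resistant HCT116 libraries at -3.03 and -1.67. Sensitive HCT116 lay from 4.61 to 5.11 there. The states of Lovo were apart too, in the opposite order, with sensitive libraries from -2.68 to -1.29 and resistant ones from 0.646 to 3.66. Of 15 colorectal epithelium genes, 6 had circRNA reads, most of them EPCAM (27 reads), CDH17 (15) and CDH1 (13). VIL1, LGR5 and GPA33 had 2 reads each over all libraries. KRT8, KRT18, KRT19, KRT20, CDX1, CDX2, MUC2, ELF3 and CEACAM5 had no row. By library, the list held 0% to 0.0475% of reads in sensitive HCT116 and 0.0531% to 0.282% in sensitive Lovo. In resistant cells it held 0.0113% to 0.0935% and 0.0403% to 0.114%. None of 10 fibroblast, 9 immune and 5 endothelial genes had a row. As KRT8 and other epithelial genes had none either, a missing row does not show that a cell type is absent.

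The 5 hosts gave circRNAs of different make-up. CEP192 had 24 circRNAs, NAV3 18, CLASP1 11, CAMSAP1 10 and SPECC1 6, where the median host of the table had 2. By reads summed over all libraries SPECC1 (389 reads) had rank 7, CAMSAP1 (358) rank 8, CEP192 (311) rank 10, NAV3 (129) rank 94 and CLASP1 (112) rank 121 of 5957 hosts. Of the 69 circRNAs, 63 were exonic (91.3%, and 78.8% of the whole table), 4 sense overlapping and 2 intronic, and 53 had a circBase identifier (76.8%, and 62.3% of the whole table). Reads were seen for 59 and none for 10, while 20 were seen in 1 library only and 5 in all 12. The exonic ones were predicted to be 196 to 6258 bases long, with a median of 1027 bases.

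**Figure D1:**
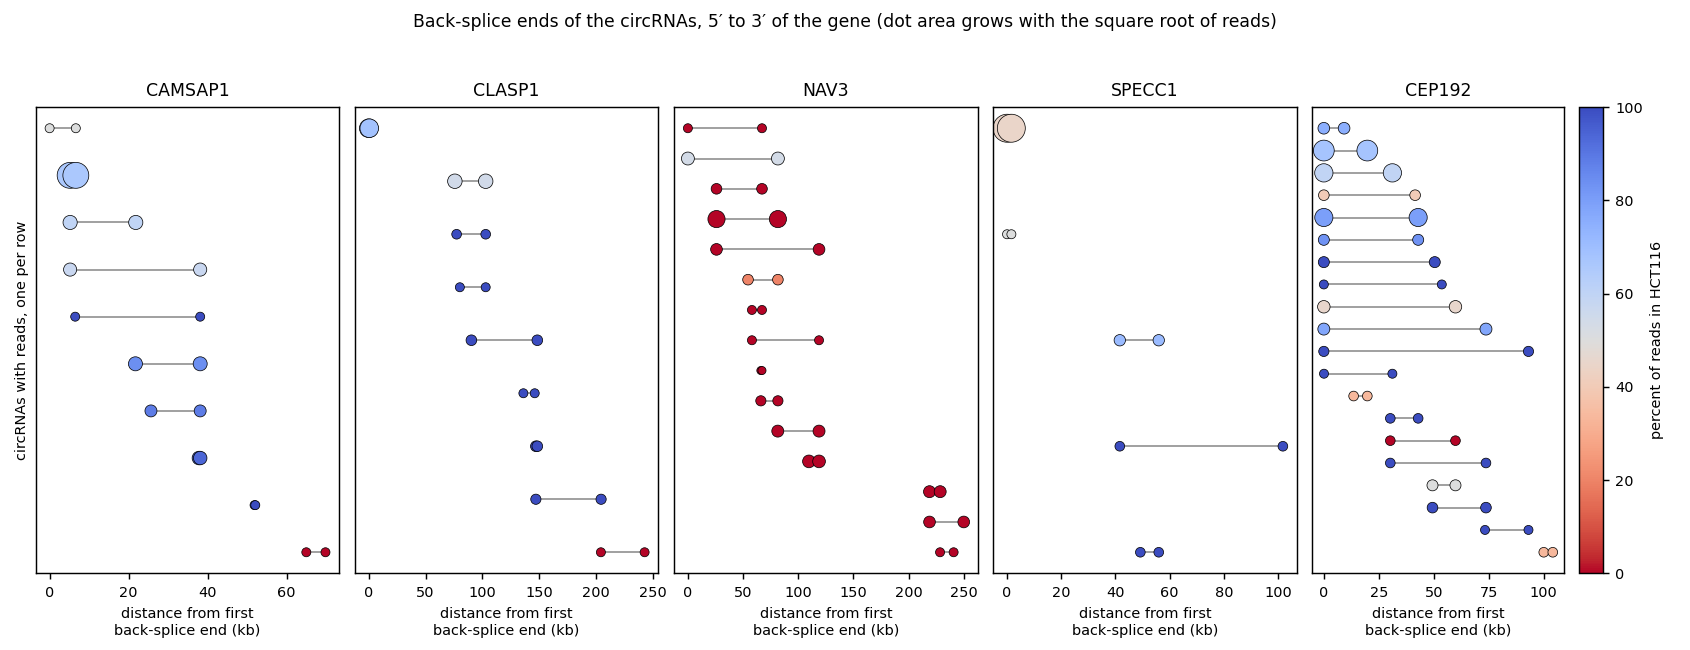
Each row is 1 circRNA with reads, drawn as the span between its back-splice ends (x axis: distance in kb from the first back-splice end, 5′ to 3′ of the gene); dots grow with reads and their colour gives the percent of reads in HCT116. Spans of CEP192 fan out from 1 shared start, those of CAMSAP1 and SPECC1 have 1 dominant circRNA, and nearly all of NAV3 lie at the Lovo end of the colour scale.

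SPECC1 and CAMSAP1 each put most of their reads into 1 circRNA. SPECC1 hsa_circ_0000745 (chromosome 17, 20107646 to 20109225, plus strand, exonic) held 374 of 389 reads of the gene (96.1%, exact binomial interval 93.7% to 97.8%) and had rank 5 in the whole table. Its predicted length of 1580 bases equals its genomic span, so that it holds a single uninterrupted block. CAMSAP1 hsa_circ_0001900 (chromosome 9, 138773479 to 138774924, minus strand, exonic, 425 bases) held 272 of 358 reads (76.0%, 71.2% to 80.3%) and had rank 8. Its start on the chromosome was shared by 1 other circRNA and its end by 2 others, and the 3 circRNAs at that end took 306 reads, 85.5% of the gene. The authors' deposited table names colorectal cancer in its disease column for both, as for 310 circRNAs in all.

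CEP192 spread its reads over many circRNAs with a common start. Of its 24 circRNAs, 13 began at position 12999420 of chromosome 18 (plus strand), and these took 281 of 311 reads (90.4%). Each of the 13 ended at a different position downstream. The leading ones were hsa_circ_0000831 (ending at 13019205, 1054 bases, 108 reads, 34.7% of the gene), hsa_circ_0107922 (13030607, 1538 bases, 62 reads, 19.9%) and hsa_circ_0046999 (13042333, 2071 bases, 60 reads, 19.3%). NAV3 reads were spread over several circRNAs too. Its leading hsa_circ_0008877 (chromosome 12, 78360009 to 78415642, plus strand, 1609 bases) held 47 of 129 reads (36.4%, 28.1% to 45.4%), and 5 of its 18 circRNAs ended at 78415642, with 69 reads together (53.5%). In CLASP1 hsa_circ_0007052 (chromosome 2, 122363277 to 122363756, minus strand) led with 67 of 112 reads (59.8%, 50.1% to 69.0%). It too is a single block, of 480 bases.

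At this depth 7 of the 69 circRNAs, those just described, passed the filter on low counts (300 of 17938 in the whole table). They carried 990 of the 1299 reads. Passing needed enough reads in at least 3 libraries, which could be of different groups, so the 7 do not stand for the 69. The most abundant circRNA left out was hsa_circ_0002374 in CLASP1 (22 reads), hsa_circ_0006814 in CAMSAP1 (20), hsa_circ_0008509 in NAV3 (13), hsa_circ_0047003 in CEP192 (11) and hsa_circ_0003545 in SPECC1 (7). All 5 genes were also tested as the sum of their circRNAs, with 580 hosts in that fit.

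NAV3 circRNAs were nearly all from Lovo. Summed over the gene, reads were 27, 22 and 20 in sensitive and 20, 15 and 17 in resistant Lovo, against 2, 1 and 3 in sensitive and 2, 0 and 0 in resistant HCT116. Every Lovo library lay above every HCT116 library. Lovo stood at 3515 ± 273 CPM when sensitive and 2283 ± 289 CPM when resistant, and HCT116 at 252 ± 114 and 75.5 ± 131 CPM. In pooled reads scaled by effective library size, sensitive Lovo was 14.2-fold above sensitive HCT116 (counting interval 6.19 to 39.9). Resistant Lovo was 28.6-fold above resistant HCT116 (7.52 to 242, on 2 HCT116 reads). Of its 15 circRNAs with reads, 13 were seen in Lovo only (111 reads) and none in HCT116 only. Of all circRNAs with reads in the table, 27.3% were seen in Lovo only and 39.7% in HCT116 only.

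The leading NAV3 circRNA, hsa_circ_0008877, had 7, 7 and 8 reads in sensitive and 12, 8 and 5 in resistant Lovo and was at 0 in all 6 HCT116 libraries. Against a floor of 3 reads over the HCT116 group, it was at least 8.56-fold higher in sensitive and at least 9.26-fold higher in resistant Lovo. This floor leaves out the counting error of the Lovo reads, and the counting intervals, which include it, had lower limits of 6.39 and 6.99. Of the 8 NAV3 reads in HCT116, 7 belonged to hsa_circ_0008509 (chromosome 12, 78334099 to 78415642), which starts upstream of the leading circRNA and ends at the same position. Lovo had 6 reads of it among 121.

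CAMSAP1 stood highest in sensitive HCT116 and lowest in sensitive Lovo. Its summed reads were 34, 34 and 73 in sensitive and 39, 32 and 32 in resistant HCT116, and 7, 15 and 13 in sensitive and 30, 23 and 26 in resistant Lovo. The levels were 5729.6 ± 1815, 4122 ± 345, 1821 ± 719 and 3469 ± 404 CPM in that order. Sensitive HCT116 was 3.27-fold above sensitive Lovo (counting interval 2.24 to 4.88) with no overlap of libraries. The resistant lines overlapped at 1.19-fold (0.877 to 1.61). In the order of the 4 groups, only the step from resistant to sensitive Lovo separated all libraries of neighbours.

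CEP192 and CLASP1 had higher means in HCT116. CEP192 had 19, 51 and 42 reads in sensitive and 52, 26 and 25 in resistant HCT116, against 21, 15 and 10 and 21, 13 and 16 in Lovo. Its levels were 4522 ± 1537 and 4077 ± 1589.7 CPM in HCT116 and 2313 ± 643 and 2192 ± 484 CPM in Lovo. HCT116 was 1.98-fold higher in the sensitive (counting interval 1.39 to 2.85) and 1.88-fold higher in the resistant state (1.33 to 2.68), without overlap at matched state. The sensitive groups were barely apart, and only on these TMM-scaled levels. Replicate 1 stood at 3043 CPM in sensitive HCT116 (19 reads) and at 2977 CPM in sensitive Lovo (21 reads). Against unscaled library totals these libraries changed order and the groups overlapped, with 19 of 6238 and 21 of 6739 junction reads. Across states, sensitive Lovo overlapped resistant HCT116.

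CLASP1 had 10, 11 and 20 reads in sensitive and 17, 6 and 15 in resistant HCT116, 8 in each sensitive Lovo library, and 2, 5 and 2 in resistant Lovo. Its levels were 1674 ± 397 and 1489 ± 613 CPM in HCT116 and 1233 ± 112 and 396 ± 229 CPM in Lovo. The lines overlapped in the sensitive state at 1.39-fold (counting interval 0.818 to 2.40) and were apart in the resistant state at 3.84-fold (1.83 to 9.04). SPECC1 overlapped between the lines in both states. Its reads were 24, 20 and 26 in sensitive and 46, 27 and 37 in resistant HCT116, and 42, 25 and 18 and then 39, 43 and 42 in Lovo. Its levels were 2990.5 ± 757, 4362 ± 832, 4262 ± 1510.5 and 5458 ± 410.2 CPM, and in order of level (resistant Lovo, resistant HCT116, sensitive Lovo, sensitive HCT116) each group overlapped the next. Lovo was 1.50-fold above HCT116 in the sensitive (1.08 to 2.08) and 1.24-fold in the resistant state (0.950 to 1.62).

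**Figure D2:**
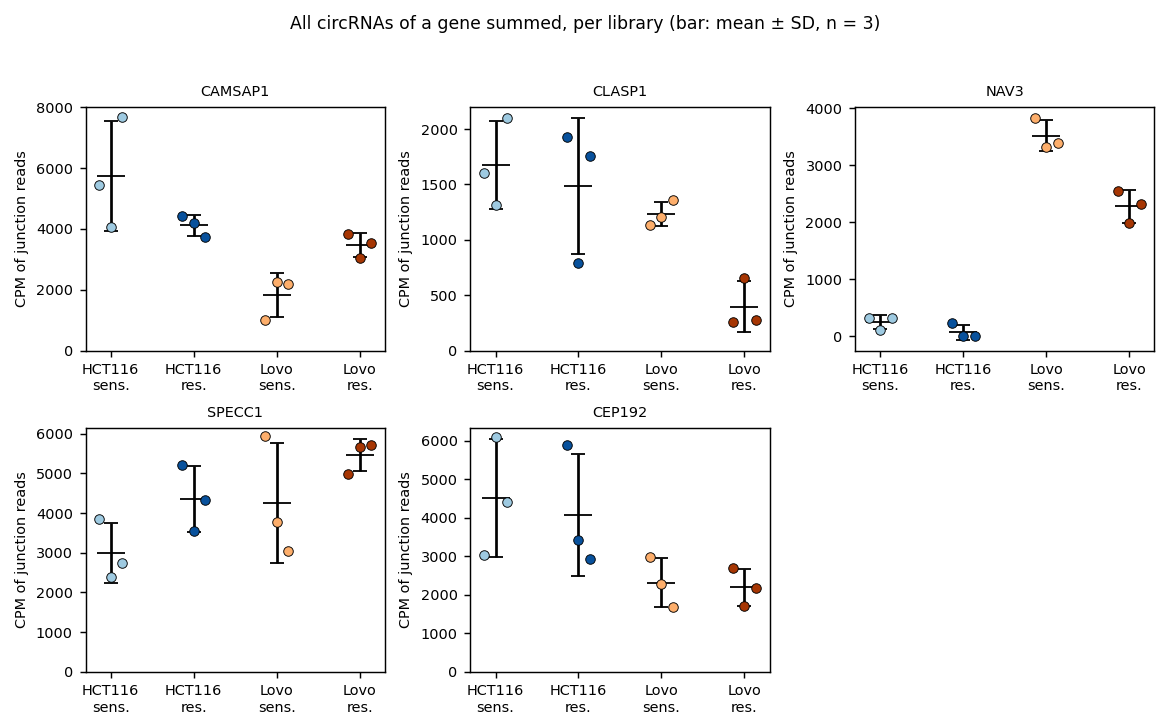
CPM of junction reads summed over all circRNAs of each gene (y axis), by group; points are libraries and bars mean ± SD (n = 3). NAV3 reads 3515 CPM in sensitive Lovo and 252 CPM in sensitive HCT116, and CAMSAP1 is lowest in sensitive Lovo (1821 CPM).

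Set against the whole table on TMM-scaled levels, sensitive HCT116 lay wholly above sensitive Lovo in 2 of the 5 host sums (CAMSAP1 and CEP192, 15.2% of 580 hosts). It lay wholly below in 1 (NAV3, 13.1%). For the resistant libraries it was 2 above (CLASP1 and CEP192; 12.4%) and 1 below (NAV3; 13.4%). Among the 7 circRNAs, CAMSAP1 hsa_circ_0001900 lay above (17.7% of 300) and NAV3 hsa_circ_0008877 below (16.7%) in the sensitive libraries. In the resistant ones none lay above (12.3%) and that of NAV3 below (16%). Nothing is read from these counts, since the genes may have been chosen on them.

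The comparison of resistant with sensitive cells asked which circRNAs accompany 5-Fu resistance. None of the 7 circRNAs and none of the 5 host sums passed in either line (edgeR quasi-likelihood test, Benjamini-Hochberg adjusted p under 0.05 over all features tested). Over all features, 1% of 300 circRNAs and 0.517% of 580 host sums passed in HCT116, and 0% of both in Lovo. At an unadjusted p under 0.05 edgeR found 1 of the 7 circRNAs in HCT116 (10% of all circRNAs tested) and 0 in Lovo (5.67%). Of the 5 host sums it found 0 in HCT116 (6.38% of all) and 2 in Lovo (5.17%). For the difference of the resistance effect between the lines it found 1 circRNA (9.67%) and 1 host sum (6.9%). DESeq2 passed 0 of them in each comparison, and its unadjusted counts were the same. In HCT116 none of the 7 circRNAs and 5 sums had all resistant libraries above all sensitive ones (6.33% of circRNAs, 6.38% of host sums) or below them (6.33% and 5%). The values below are therefore given as sizes with their errors, and a missed threshold does not show equal levels.

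CAMSAP1 had opposite signs in the 2 lines. Its sum was 1.42-fold lower in resistant HCT116 (counting interval 1.09 to 1.85; log2 fold change -0.48 ± 0.29 SE, edgeR adjusted p = 0.758), with overlapping libraries. In Lovo it was 1.94-fold higher in resistant cells (1.29 to 2.98; 0.94 ± 0.35, edgeR adjusted p = 0.674), and all 3 resistant libraries lay above all 3 sensitive ones, as in 6.55% of hosts. The difference of these effects, HCT116 minus Lovo, was -1.42 ± 0.46 log2 units (edgeR adjusted p = 0.267), while 0% of hosts passed this test. Over 17 alternatives this adjusted p ran from 0.0915 to 1.00. Its leading hsa_circ_0001900 had 31, 22 and 52 reads in sensitive and 25, 24 and 26 in resistant HCT116, and 7, 15 and 10 against 19, 18 and 23 in Lovo. Its levels were 4557 ± 1661 and 2942 ± 52.8 CPM in HCT116, and 1627 ± 636 and 2629.7 ± 480.0 CPM in Lovo, where again all resistant libraries were higher (7.67% of circRNAs). The effects were -0.63 ± 0.34 in HCT116 (edgeR adjusted p = 0.521) and 0.69 ± 0.39 in Lovo (adjusted p = 0.662), and their difference -1.31 ± 0.52 (adjusted p = 0.382, with 0.333% of circRNAs passing). The leading circRNA is part of the sum and gives no separate evidence.

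The other CAMSAP1 circRNAs were few in sensitive Lovo. There the leading one held 32 of 35 reads (91.4%, exact interval 76.9% to 98.2%), and 60 of 79 in resistant Lovo (75.9%, 65.0% to 84.9%). It held 105 of 141 (74.5%, 66.4% to 81.4%) in sensitive and 75 of 103 (72.8%, 63.2% to 81.1%) in resistant HCT116. The intervals overlap.

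CLASP1 and NAV3 sums were lower in resistant Lovo, with no overlap of libraries (4.48% of hosts). CLASP1 stood 3.10-fold lower there (counting interval 1.39 to 7.58; log2 fold change -1.60 ± 0.68, edgeR adjusted p = 0.816), on 24 and 9 reads, and at -0.16 ± 0.52 in HCT116 (adjusted p = 0.958). None of the 7 circRNAs was wholly lower in resistant Lovo (4.67% of circRNAs). Its hsa_circ_0007052 had 7, 2 and 4 reads in sensitive and 2, 5 and 1 in resistant Lovo (650.3 ± 354 and 344 ± 262 CPM; -0.88 ± 0.85, edgeR adjusted p = 0.956), and 2, 6 and 15 against 10, 2 and 11 in HCT116 (919.6 ± 702 and 885 ± 554 CPM). Libraries overlapped in both lines. The second CLASP1 circRNA, hsa_circ_0002374 (chromosome 2, 122260743 to 122287901), gave 9 reads in Lovo before and 1 after selection, 8 and 4 in HCT116, and was too low for the test.

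NAV3 stood 1.54-fold lower in resistant Lovo (counting interval 1.06 to 2.26; -0.62 ± 0.44, edgeR adjusted p = 0.934). The leading hsa_circ_0008877 was nearly level there, at 1116 ± 137 and 1078 ± 418 CPM (-0.04 ± 0.79, edgeR adjusted p = 1), and its share of the gene was 22 of 69 reads (31.9%, exact interval 21.2% to 44.2%) in sensitive and 25 of 52 (48.1%, 34.0% to 62.4%) in resistant Lovo. In HCT116, on 6 and 2 reads, the NAV3 sum gave a ratio of 0.322 (0.0317 to 1.80).

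SPECC1 had a higher mean in the resistant cells of both lines, without passing. The sum was 1.52-fold higher in HCT116 (counting interval 1.11 to 2.08; 0.57 ± 0.30, edgeR adjusted p = 0.753) and 1.25-fold in Lovo (0.944 to 1.67; 0.34 ± 0.29, adjusted p = 0.954). Its hsa_circ_0000745 had 22, 19 and 22 reads in sensitive and 46, 27 and 32 in resistant HCT116, and 42, 23 and 18 against 39, 43 and 41 in Lovo. Levels were 2811 ± 706 and 4102 ± 1051 CPM in HCT116 (0.57 ± 0.32, edgeR adjusted p = 0.59) and 4142 ± 1699 and 5369 ± 377 CPM in Lovo (0.37 ± 0.30, adjusted p = 0.904). Sensitive and resistant libraries overlapped in both lines. Without resistant HCT116 replicate 1, which held 46 of the reads, the HCT116 value was 0.35 ± 0.36 (edgeR adjusted p = 0.924).

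**Figure D3:**
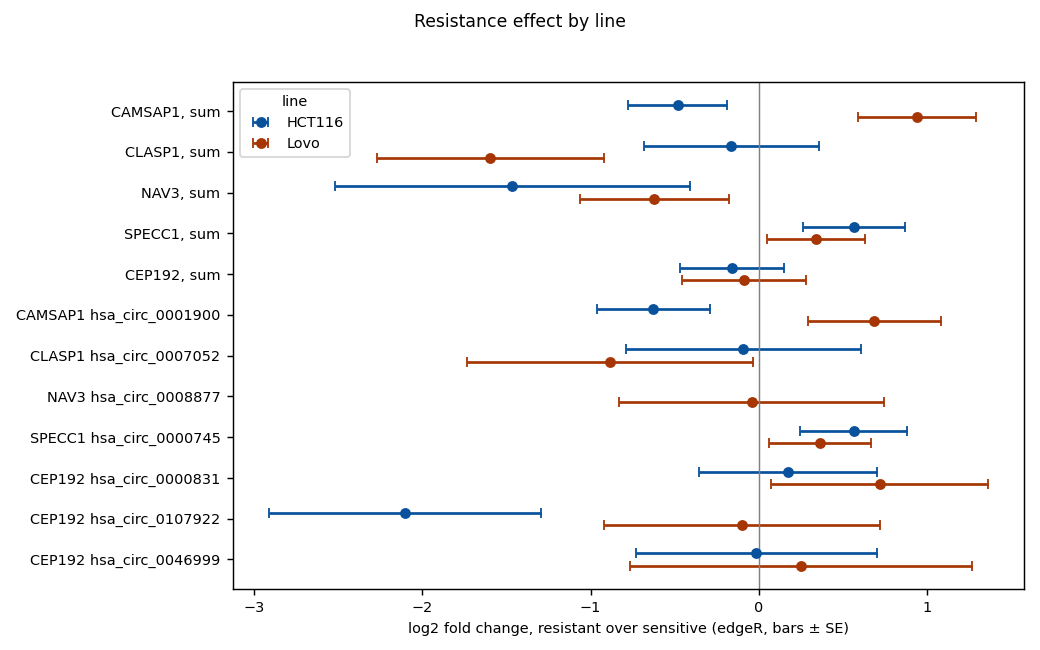
Log2 fold change of resistant over sensitive cells (x axis, edgeR, bars ± SE) for the 5 host sums and the 7 tested circRNAs in HCT116 (blue) and Lovo (brown); NAV3 hsa_circ_0008877 had no HCT116 reads. CAMSAP1 lies on opposite sides of 0 in the 2 lines, the largest HCT116 value is that of CEP192 hsa_circ_0107922 (-2.10), and none passed the test.

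For CEP192 the sum gave -0.16 ± 0.31 in HCT116 (edgeR adjusted p = 0.958) and -0.09 ± 0.37 in Lovo (adjusted p = 1), with overlapping libraries. Within it, hsa_circ_0107922 had 3, 9 and 18 reads in sensitive and 2, 4 and 1 in resistant HCT116, 4.73-fold lower (counting interval 2.04 to 12.8). Its levels were 1209.9 ± 776 and 280.3 ± 196 CPM. The libraries touched, since sensitive replicate 1 (494 CPM) lay just below resistant replicate 2 (496 CPM). The log2 fold change was -2.10 ± 0.81 (edgeR adjusted p = 0.218), and over 16 alternatives the adjusted p ran from 0.224 to 0.735. The size rested partly on single libraries, at -1.50 without sensitive replicate 3 and -2.75 without resistant replicate 2. In Lovo it had 3, 7 and 2 and then 8, 2 and 3 reads (-0.10 ± 0.82, edgeR adjusted p = 1), and the difference between the lines was -2.003 ± 1.16 (adjusted p = 0.572), and from -2.64 to -1.34 when 1 library was left out.

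The other 2 tested CEP192 circRNAs share its start. The shorter hsa_circ_0000831 had 11, 14 and 7 reads in sensitive and 24, 7 and 10 in resistant HCT116 (1438 ± 563 and 1592 ± 1026 CPM, 0.18 ± 0.53, edgeR adjusted p = 0.967), and 6, 5 and 1 against 10, 5 and 8 in Lovo (595 ± 382 and 1004 ± 327 CPM, 0.72 ± 0.65, adjusted p = 0.904). The longer hsa_circ_0046999 had 3, 17 and 3 against 12, 4 and 9 reads in HCT116 (971 ± 964 and 969 ± 446 CPM, -0.01 ± 0.72, edgeR adjusted p = 1), and 0, 0 and 5 against 1, 2 and 4 in Lovo (265 ± 458 and 312 ± 219 CPM). In Lovo all of its reads in sensitive cells came from replicate 3. Libraries of both circRNAs overlapped between sensitive and resistant cells in each line. Of all CEP192 reads, hsa_circ_0107922 held 26.8% (30 of 112, exact interval 18.9% to 36.0%) in sensitive and 6.80% (7 of 103, 2.78% to 13.5%) in resistant HCT116, and 26.1% (12 of 46) and 26.0% (13 of 50) in Lovo. By library this share ran from 15.8% to 42.9% in sensitive and from 3.85% to 15.4% in resistant HCT116. The difference between these shares was not tested, as the circRNA was singled out by its reads.

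**Figure D4:**
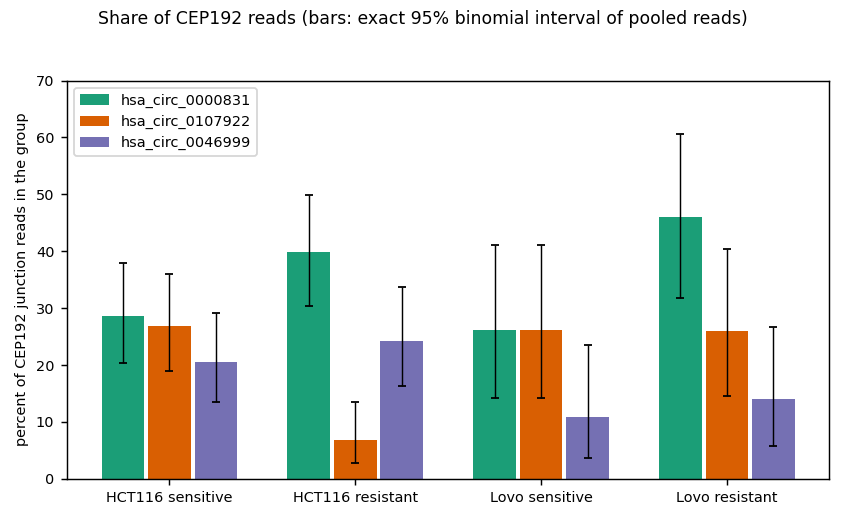
Percent of all CEP192 junction reads of a group (y axis) held by its 3 leading circRNAs, with exact 95% binomial intervals of the pooled reads. That of hsa_circ_0107922 is 26.8% in sensitive and 6.80% in resistant HCT116, and 26.1% and 26.0% in Lovo.

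**Figure D5:**
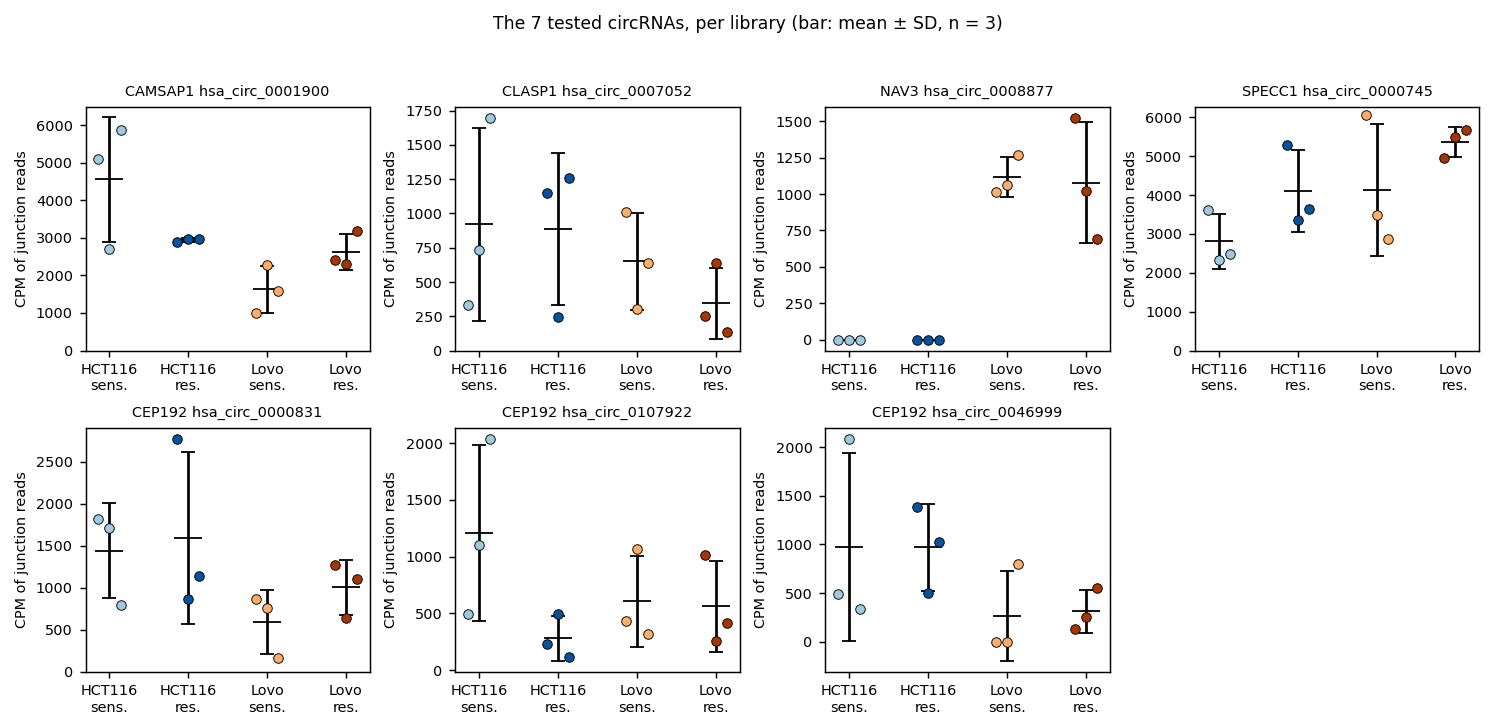
CPM of junction reads (y axis) of the 7 tested circRNAs by group; points are libraries and bars mean ± SD (n = 3). Sensitive and resistant libraries of a line overlap in all panels except CAMSAP1 hsa_circ_0001900 in Lovo and the HCT116 groups of NAV3, which are all at 0.

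Other genes of the microtubule and centrosome machinery were read from 4 lists. Of 165 genes 111 had circRNA reads, and 5 circRNAs and 12 host sums could be tested. None passed the edgeR test in either line, and at an unadjusted p under 0.05 edgeR found 1 of the 5 circRNAs in HCT116 (10% of all circRNAs tested), 0 in Lovo (5.67%) and 0 of the 12 host sums in both (6.38% and 5.17% of all host sums). The median log2 fold change of the 12 sums was -0.28 in HCT116 and 0.06 in Lovo, against 0.04 and 0.00 over all 580. The list of microtubule ends and nucleation held 4 tested hosts, centrosome and centriole 7, lattice binding, severing and modification 1, and motors 0. Among these circRNAs the smallest p-values were those of SCLT1, a protein of the centriole's distal appendages (hsa_circ_0001439, chromosome 4, 129913322 to 129925031), and of TUBGCP3, a subunit of the γ-tubulin ring complex (hsa_circ_0000504, chromosome 13, 113170754 to 113181798). SCLT1 had 4, 21 and 7 reads in sensitive and 6, 6 and 1 in resistant HCT116 (-1.38 ± 0.68, edgeR adjusted p = 0.452). Sensitive replicate 2 held 21 of the 32 sensitive reads. In Lovo it had 8, 3 and 7 and then 10, 3 and 2 reads (-0.48 ± 0.71, edgeR adjusted p = 1). TUBGCP3 had 18 and 7 (-1.46 ± 0.90, edgeR adjusted p = 0.658) and 8 and 17 reads (0.87 ± 0.90, adjusted p = 0.984).

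For each member the hosts most like it over the 12 libraries were listed by Pearson's r of log2 CPM among 579 other hosts, as a description, since libraries share their line and their total. NAV3 was most like DSG3 (r = 0.970; 0, 0, 73 and 67 reads in sensitive and resistant HCT116 and sensitive and resistant Lovo), SEMA3C (0.935) and ABR (0.933). CAMSAP1 was most like USP10 (0.939; 39, 41, 14 and 31 reads), ATAD2 (0.850) and DLG1 (0.818). For CLASP1 they were ACACA (0.894; 22, 19, 8 and 1 reads), RHBDD1 (0.855) and ARHGAP29 (0.752). For CEP192 they were TIAM1 (0.840; 21, 27, 1 and 2 reads), DCTD (0.795) and PTP4A2 (0.793). Those of SPECC1 had few reads. They were CARNMT1 (0.819; 3, 13, 11 and 13 reads), USP31 (0.798; 0, 6, 5 and 13) and CHD2 (0.791; 2, 7, 8 and 18). Among the 5 themselves r ran from -0.683 between NAV3 and CEP192 to 0.469 between CLASP1 and CEP192.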

How the data were processed

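Ribosomal RNA was depleted from total RNA and directional libraries were made, per the labels' protocols. The deposited table gives raw counts of junction reads per circRNA, per the file headers, with position, class, host gene and, as another annotation, predicted length. The submitters' processing notes list cutadapt 1.9.3, the aligner STAR 2.5.1b, edgeR 3.16.5 and the build hg19, without saying what each did. For the circRNA caller, the annotation and any listing minimum, nothing is stated in those sources. Positions are 1-based. Groups and replicate numbers came from the labels.

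Counts per circRNA and summed per host were fitted over the whole table with edgeR 4.0.16 (R 4.3.3): TMM, filterByExpr (minimum count 5, minimum total 15), quasi-likelihood F-test, all 12 libraries and 4 group means, which left 8 residual degrees of freedom. The 22 circRNAs with no host entered no sum. The printed standard error is the log2 fold change divided by the square root of F. Folds given with a counting interval are ratios of the pooled reads of 2 groups, each scaled by effective library size. Counting intervals are exact conditional binomial (95%), scaled by effective library size, and cover counting error only. Named were circRNAs that passed the filter, the 5 sums, the most-read circRNA left out per gene, and, for the lists, the 2 smallest p per line. Others named for their reads were chosen after their values were seen. Alternatives were DESeq2 1.42.0, library totals, no filter, a minimum count of 10, 1 line alone, a replicate block and leaving out each library. Fits were tested on simulated data. The members and lists were chosen with earlier results of these data known.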

Additional observations from a re-analysis of the deposited data

How the results depend on the processing

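No member circRNA or host sum passed under any of the 18 alternatives run, but not all were tested in each. At a minimum count of 10, only 3 of the 7 circRNAs were in the fit. With 1 line alone it was 5 in HCT116 and 4 in Lovo, and 4 of the 5 host sums in HCT116. The smallest adjusted p was 0.0915, for the difference of the CAMSAP1 sums at a minimum count of 10. The number of circRNAs that passed in HCT116 went from 3 to 1 without a filter, and that for the difference between the lines from 1 to 0 without a filter and to 2 at a minimum count of 10. In Lovo it went from 0 to 1 with the line alone. For host sums it went from 3 to 6 in HCT116 with the line alone, and from 0 to 2 for the difference at a minimum count of 10. Leaving out 1 library gave 1 to 5 circRNAs in HCT116 and 0 to 3 for the difference, and for host sums 0 to 1 in Lovo and 0 to 2 for the difference. The log2 ratio of the resistant CAMSAP1 sums, HCT116 over Lovo, then ran from 0.021 to 0.25.

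These values changed sign, and the cause was not tested. With library totals CEP192 hsa_circ_0046999 and CLASP1 hsa_circ_0007052 in HCT116 came to 0.049 and 0.018. Without a filter NAV3 hsa_circ_0008877 and the CEP192 sum in Lovo came to 0.031 and 0.026. DESeq2 put the difference of the CEP192 sums at 0.00023. The HCT116 value of hsa_circ_0046999 was 0.040 with the line alone. Leaving out 1 library, values crossed 0 in these ranges. In HCT116 they were -0.44 to 1.20 for hsa_circ_0046999, -0.47 to 0.43 for hsa_circ_0000831, -0.45 to 0.68 for hsa_circ_0007052, -0.55 to 0.064 for the CEP192 sum and -0.42 to 0.11 for the CLASP1 sum. In Lovo they were -0.47 to 4.35 for hsa_circ_0046999 (the highest with the sensitive group at 0), -0.70 to 0.53 for hsa_circ_0107922, -0.23 to 0.13 for hsa_circ_0008877 and -0.26 to 0.13 for the CEP192 sum. For the difference they were -4.38 to 1.00 for hsa_circ_0046999, -0.45 to 0.16 for the CEP192 sum, -0.29 to 0.37 for SPECC1 hsa_circ_0000745 and -0.13 to 0.40 for its sum.

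The labels do not say that replicate numbers pair libraries, so the numbers were not taken as pairs. Deviations of same-numbered sensitive and resistant libraries gave r from -0.0448 to 0.0625 over the tested circRNAs. Different-numbered ones gave -0.0673 to 0.0693. With so few reads per circRNA, counting error can hide a pairing, and these values cannot exclude it. With the replicate block hsa_circ_0046999 in HCT116 came to 0.051 and no member call was made.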

Other observations

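Back-splices of CEP192 that ended at position 13059311 of chromosome 18 came from 3 circRNAs with 20 reads in all. Sensitive Lovo held 12 of them, 9 in replicate 1, and resistant Lovo 0. Sensitive HCT116 held 2 and resistant HCT116 6. These circRNAs were picked out after their values were seen and were too low for a test.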
